A study of Mus musculus with 18 samples.

Results

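The genes described here encode the collagens, the laminins and other proteins of basement membranes and the extracellular matrix. They were taken by name from the deposited table: protein-coding genes whose GENCODE M21 symbol is that of a collagen chain, a laminin chain, a nidogen (Nid1, Nid2), a fibrillin (Fbn1, Fbn2) or a fibulin (the Fbln genes), with Sparc, Hspg2 and Fn1 added. The names gave 66 genes of 53090 gene IDs in all. By protein family they fall into 22 basement membrane genes, 11 fibrillar collagens, 25 other collagens and 8 genes of microfibrils, fibulins and glycoproteins. Of the 66, 55 had enough reads to be tested, namely 20, 9, 21 and 5 in the same order. The 11 others held at most 80 reads each over all libraries and are given by level only.

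RNA was sequenced from beta cells, the insulin-secreting cells of pancreatic islets, of mice lacking the insulin receptor in the liver (LIRKO) and of control mice (Ctrl), each on chow (Chow) or on a diet labelled HFD, an abbreviation that the labels do not spell out. The 18 libraries comprised 6 of Ctrl Chow, 5 of Ctrl HFD, 4 of LIRKO Chow and 3 of LIRKO HFD. Islets of all 4 groups were cultured overnight, dispersed with trypsin and sorted by light scatter and by the cells' own fluorescence, with no surface marker. The labels give neither the Cre line that made the deletion nor strain, sex, age, duration of the diet, animal or batch, and since the deletion lies in the liver no library here can check it. Replicates are numbered in the order of the deposited samples, and each p-value is set against the spread among these libraries, part of which may be technical.

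Basement membranes are thin sheets of matrix on which epithelial and endothelial cells rest. Laminins, trimers of an alpha, a beta and a gamma chain, form one network and type IV collagen the other, and nidogens and perlecan (Hspg2) link them. In mouse islets the endothelial cells of the capillaries are known as the main source of this sheet, while beta cells bind it through integrins. Fibrillar collagens such as types I and III form the fibres of interstitial matrix and are chiefly made by fibroblasts and related mesenchymal cells.

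Total counts per library ran from 19490235 to 51714775, and the 66 genes took between 0.0237% and 0.0887% of them. Transcripts that define beta cells were high in every library, with Ins1 at 19969 to 55370 counts per 1000000 counts of the library (CPM), Ins2 at 59849 to 145661 CPM and Pdx1, a transcription factor of beta cells, at 60.4 to 176 CPM. Transcripts of other cells were present as well. The endothelial receptor gene Kdr was at 2.69 to 87.4 CPM, the pericyte gene Rgs5 at 0.636 to 18.2 CPM and the alpha cell hormone gene Gcg at 104 to 3963 CPM. Of the fibroblast genes, Pdgfra and Lum were at 0 in 8 and in 9 of the 18 libraries, while Dcn had reads in every library, at 0.0249 to 1.63 CPM. A count of 0 allows up to 3 reads, that is 0.0599 to 0.149 CPM depending on the library, for counting error only. LIRKO Chow replicates 1 and 2 were nearly alike, as were replicates 3 and 4. The median absolute deviation of the log2 ratio was 0.101 and 0.115 in these pairs, against 0.191 or more in every other pair of libraries of 1 group. Their counts differed beyond sampling noise, with a chi-square per gene of 4.92 and 6.21 where counting error alone gives about 1. Every other such pair was at 25.8 or more. Separate preparations from 1 animal or pool could also exceed 1, so the value cannot show that the 4 LIRKO Chow libraries are independent. The main fit kept them apart, and its p-values for LIRKO Chow take them as independent. An alternative summed each pair. Ctrl HFD replicates 1 and 2 had the highest shares of the nuclear RNA Malat1, at 1.37% and 1.06%. All 4 pairwise comparisons share groups with each other, so their values are not independent.

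Compared per length of exon, as CPM divided by exon length in kilobases (RPKM), the genes spanned a wide range. Col6a6, which encodes an alpha chain of type VI collagen, stood first with a mean of 16.5 RPKM over the 18 libraries. Other high levels were those of Sparc (7.43 RPKM), a secreted collagen-binding protein, Col4a1 (6.90), Col4a2 (5.03), Lamc1 (4.28), the common gamma chain of most laminins, Col11a2 (3.14) and Col16a1 (2.58). The other end of the range was close to nothing: Col9a1, with 3 reads over 18 libraries, was at 0.000920 RPKM. The highest of these overlapped widely between libraries, with 8.58 to 24.1 RPKM for Col6a6, 0.427 to 19.2 for Sparc and 1.42 to 13.9 for Col4a1.

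**Figure D1:**
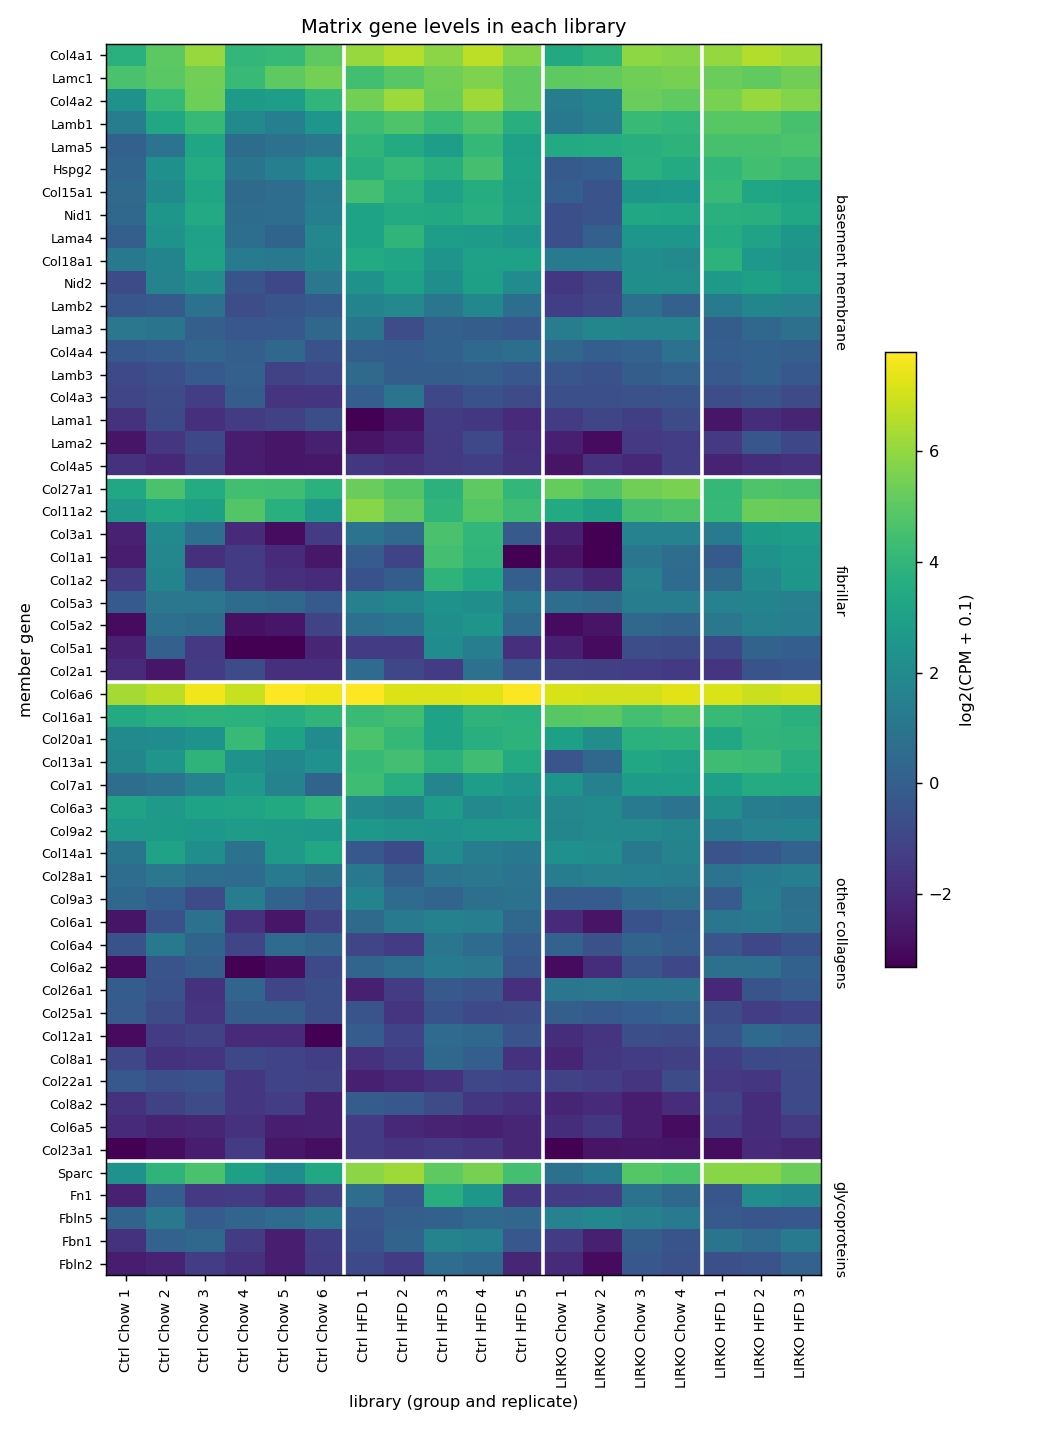
Level of 54 of the 55 tested genes (rows, grouped by protein family and ordered by mean level within each) in the 18 libraries (columns, grouped by genotype and diet), as log2(CPM + 0.1) on the colour scale. LIRKO Chow replicates 1 and 2 are dark in the rows of Col4a2, Nid1, Nid2 and Hspg2 where replicates 3 and 4 are bright, and Col6a6 is bright throughout.

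Some chains were abundant without the partners they are known to assemble with. Col6a6 was at 15.2 ± 1.41 RPKM (SD, n = 4) in LIRKO Chow and 16.1 ± 6.17 (n = 6) in Ctrl Chow, whereas Col6a1, a core chain of every type VI collagen, was at 0.0908 ± 0.0815 and 0.111 ± 0.140 RPKM in the same groups. In single libraries the level of Col6a6 was between 24.6 and 1679 times that of Col6a1. Col9a2 was at 2.06 ± 0.116 RPKM in Ctrl Chow and its partner Col9a3 at 0.293 ± 0.180, and no library had more than 0.00621 RPKM of Col9a1. The level of a transcript is not that of a protein, and assembly was not measured.

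**Figure D2:**
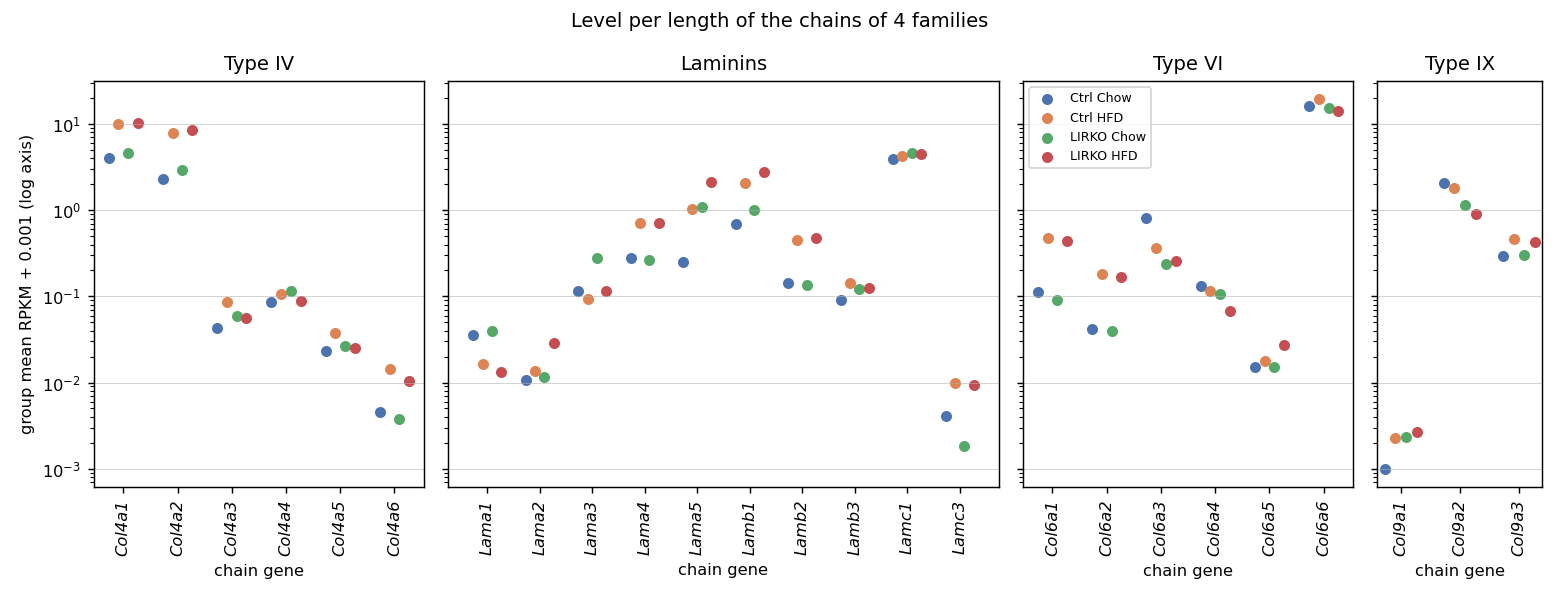
Mean level per exon length (RPKM + 0.001, log axis) of chains of type IV collagen, laminins, type VI and type IX collagen in each of the 4 groups (colours, 3 to 6 libraries each). Col4a1 with Col4a2, Lamc1, Col6a6 and Col9a2 stand above the other chains plotted for their families.

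Col4a1 and Col4a2, the 2 ubiquitous chains of type IV collagen, start head to head on chromosome 8, where the annotated transcripts of Col4a1 (11198423 to 11312826 on GRCm38, minus strand) and Col4a2 (11312805 to 11449287, plus strand) share 22 bases. The sequence is shown because both genes are read from this one stretch, and reads in it cannot be told apart without strand. The window is chr8:11312801-11312830 on GRCm38.p6, from the RefSeq promoter table, written on the plus strand, with the shared bases in capitals.
Col4a1 and Col4a2 starts: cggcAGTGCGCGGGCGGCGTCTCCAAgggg
The overlap covers 0.295% of the exons of Col4a1 and 0.332% of those of Col4a2, so it moves neither count by much. Per length, Col4a1 exceeded Col4a2 1.48- to 2.36-fold in Ctrl Chow, 1.15- to 1.41-fold in Ctrl HFD and 1.22- to 1.27-fold in LIRKO HFD. In LIRKO Chow, replicates 1 and 2 had ratios of 3.88 and 4.10, while replicates 3 and 4 had 1.36 and 1.42. These 2 highest ratios came from the libraries with the least Col4a2, at 2.42 and 3.12 CPM.

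The level of type IV collagen ranged widely within the Chow groups. Col4a1 was at 13.2, 24.4 and 68.1 CPM (lowest, median and highest) in Ctrl Chow, and at 68.0, 93.7, 57.6, 104 and 53.1 CPM in Ctrl HFD replicates 1 to 5. In LIRKO Chow it was at 10.6 and 14.4 CPM in replicates 1 and 2 but at 58.8 and 54.5 CPM in replicates 3 and 4. In LIRKO HFD it was at 65.3, 91.2 and 77.0 CPM. Ctrl Chow replicate 3 was the highest of its group at 68.1 CPM and lay among the HFD libraries.

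The split within LIRKO Chow ran through much of the set. In 18 of the 55 tested genes, both of LIRKO Chow replicates 3 and 4 stood more than 3-fold above both of replicates 1 and 2, a limit chosen after the values were seen. The same was true of 2.81% of all 19284 genes tested. The 18 included 8 of 20 basement membrane genes, namely Col4a1, Col4a2, Col15a1, Hspg2, Lama4, Lamb1, Nid1 and Nid2. They also included 5 of 9 fibrillar collagens (Col1a1, Col1a2, Col3a1, Col5a1 and Col5a2), Fbln2, Fn1 and Sparc of the 5 glycoproteins, and Col13a1 and Col6a1. The mean of Nid1 was 9.66 CPM in the higher and 0.606 CPM in the lower pair of libraries, and that of Sparc 27.0 and 1.97 CPM.

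Endothelial transcripts split the same libraries, as did those of other cell types. The summed level of 17 endothelial markers was 21.2 and 25.6 CPM in the LIRKO Chow replicates 1 and 2, against 217 and 186 CPM for replicates 3 and 4. It ran from 45.9 to 243 CPM in Ctrl Chow, where replicate 3 was highest, from 192 to 394 CPM in Ctrl HFD and from 306 to 388 CPM in LIRKO HFD. The 11 mural markers, of pericytes and smooth muscle, ran from 6.89 to 24.1 CPM in Ctrl Chow and 7.64 to 26.6 CPM in LIRKO Chow, and on HFD from 23.4 to 43.4 CPM in Ctrl and 34 to 44.9 CPM in LIRKO. None of the 3 defining endothelial markers (Pecam1, Cdh5, Kdr) was at 0 in any library, while Acta2, a defining mural marker, was at 0 in 4. The 9 alpha cell markers summed to 938 and 957 CPM in LIRKO Chow replicates 1 and 2 and to 2371 and 2564 CPM in replicates 3 and 4. The 3 PP cell markers summed to 144 and 127 CPM against 394 and 325 CPM. The 13 acinar cell markers ran the other way, at 234 and 294 CPM against 60.9 and 28.7 CPM. The part of these cells in the levels below was not tested, and in bulk RNA fewer cells of a type and less RNA per cell cannot be told apart.

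**Figure D3:**
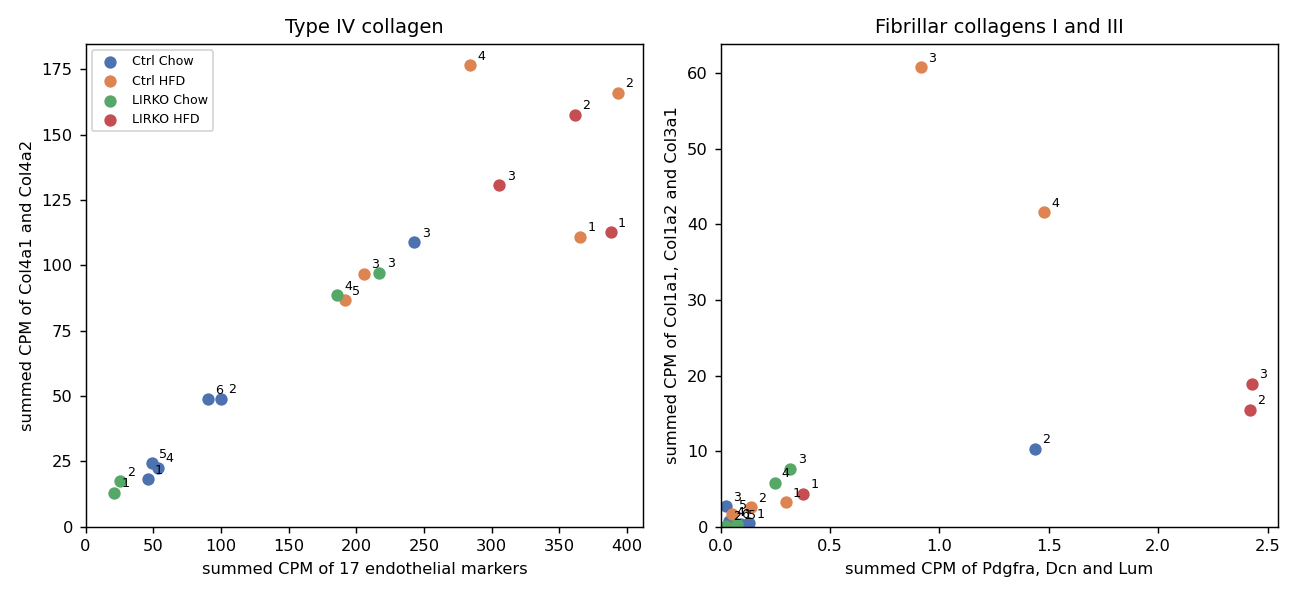
Left, summed CPM of Col4a1 and Col4a2 against the summed CPM of 17 endothelial markers. Right, summed CPM of Col1a1, Col1a2 and Col3a1 against that of the fibroblast markers Pdgfra, Dcn and Lum. Each point is 1 library (number, replicate; colour, group). LIRKO Chow replicates 1 and 2 lie lowest on the left, and Ctrl HFD replicates 3 and 4 stand alone at 60.8 and 41.6 CPM on the right.

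In mice on chow, LIRKO beta cell libraries held more transcripts of the laminin chains Lama5 and Lama3, of the collagens Col16a1 and Col27a1 and of the elastic fibre protein gene Fbln5, and fewer of Col6a3 and Col9a2. The comparison addresses the beta cell transcripts of mice whose liver lacks the insulin receptor. With edgeR's quasi-likelihood test 7 of 55 genes passed at an adjusted p under 0.05, 5 higher and 2 lower, where 5.15% of all genes tested passed, 2.95% higher and 2.2% lower. The median log2 difference was 0.32 over the 55 and −0.02 over all genes. By family it was 0.30 for the 20 basement membrane genes, 0.48 for the 9 fibrillar collagens, 1.02 for the 5 glycoproteins and −0.09 for the 21 other collagens. Every LIRKO Chow library was above every Ctrl Chow library for 7 genes (6.46% of all genes) and below for 2 (5.21%). The 2 of these 9 that did not pass were Col26a1, at 1.84 to 2.04 CPM against 0.206 to 1.12 (adjusted p = 0.0599), and Col28a1, at 2.47 to 2.74 against 1.40 to 2.28 CPM (adjusted p = 0.135), both named after their values were seen. Of the marker lists of other cells, none of 17 endothelial markers was called in this comparison (median log2 difference 0.21), while 1 of 10 mural, 1 of 7 ductal and 2 of 9 alpha cell markers were higher, and 1 of 12 macrophage, 1 of 7 fibroblast, 1 of 2 mesothelial and 1 of 3 PP cell markers lower. The 7 mesothelial markers summed to 10.8 to 14.9 CPM in LIRKO Chow and 29 to 59.9 CPM in Ctrl Chow, with the defining ones Upk3b, Lrrn4 and Wt1 at 0 in 13 to 15 of the 18 libraries. The part of these cells was not tested.

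Lama5 encodes laminin alpha 5, an alpha chain of laminins in vascular and epithelial basement membranes. It was at 0.999, 1.74 and 9.14 CPM (lowest, median and highest) in Ctrl Chow and at 11.1, 11.4, 12.4 and 14.4 CPM in the 4 LIRKO Chow libraries. The groups did not overlap. The log2 difference was 2.10 ± 0.45 (SE), a 4.30-fold rise (adjusted p = 0.0103). Ctrl Chow replicate 3 alone held 9.14 CPM, the other 5 being at or below 2.03, and without it the log2 difference was 2.96 with an adjusted p of 2.99e-06. Lama5 did not take part in the split within LIRKO Chow: replicates 1 and 2, with the lowest endothelial sums of all 18 libraries, held 11.1 and 11.4 CPM. Lama4, the other alpha chain of endothelial laminins, was at 0.563 and 0.947 CPM there, and per length the ratio of Lama5 to Lama4 was 20.9 and 12.8, against 0.378 to 1.65 in Ctrl Chow and 2.35 and 2.67 in LIRKO Chow replicates 3 and 4. The acinar markers summed to 234 and 294 CPM in LIRKO Chow replicates 1 and 2, and to 60.9 and 28.7 CPM in replicates 3 and 4. Which cells the Lama5 transcripts came from was not tested. The call was lost with LIRKO Chow replicates 3 and 4 left out (log2 difference 1.98, adjusted p = 0.113) and with the near-alike libraries summed (2.10, adjusted p = 0.106).

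The windows of 250 bases before the RefSeq starts of Lama5 and Col27a1 are shown, since both genes rose in LIRKO Chow and neither window overlaps an annotated exon. Capitals mark GC boxes (GGGCGG, on either strand). The Lama5 window is chr2:180225860-180226109 on GRCm38.p6, minus strand, next to the gene at 180176373 to 180225859. The Col27a1 window is chr4:63215162-63215411, plus strand, in an intron of the longer GENCODE gene (63214004 to 63334991).
Lama5: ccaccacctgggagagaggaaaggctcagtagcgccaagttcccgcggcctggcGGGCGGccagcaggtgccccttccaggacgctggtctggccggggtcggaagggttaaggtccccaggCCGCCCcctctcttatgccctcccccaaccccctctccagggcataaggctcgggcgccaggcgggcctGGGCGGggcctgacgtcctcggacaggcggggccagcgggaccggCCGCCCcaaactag
Col27a1: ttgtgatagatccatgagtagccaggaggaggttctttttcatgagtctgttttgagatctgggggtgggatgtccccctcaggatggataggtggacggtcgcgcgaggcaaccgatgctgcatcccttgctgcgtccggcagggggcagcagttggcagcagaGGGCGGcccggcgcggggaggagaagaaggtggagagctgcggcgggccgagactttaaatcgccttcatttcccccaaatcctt
The Lama5 window held 4 GC boxes and the Col27a1 window 1. The table had 54 windows for 48 of the 66 genes, and 30 of them (55.6%) held a GC box, against 32.7% of the 32851 windows in the table. A CCAAT box (CCAAT) stood in 31.5% of the members' windows and 33.8% of all, a TATA box (TATAAA) in 9.26% and 12.4%, and an ETS core (GGAAGT) in 18.5% and 19.7%, each searched on both strands. None of these strings contains another, and a match describes letters, not binding.

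Of the collagens that rose, Col16a1, which encodes a fibril-associated chain, was at 10.9, 13.3 and 15.2 CPM (lowest, median and highest) in Ctrl Chow and at 30.2, 31.5, 22.1 and 26.2 CPM in LIRKO Chow. The log2 difference was 1.06 ± 0.19 (SE), with an adjusted p of 0.00274. Both LIRKO Chow pairs were above all Ctrl libraries, but without replicates 1 and 2 the difference was 0.87 and the adjusted p 0.0679. Col27a1, a fibrillar chain best known from cartilage, was at 9.81, 17.2 and 24.4 CPM in Ctrl Chow and at 35.5, 26.7, 41.8 and 47.0 CPM in LIRKO Chow (log2 difference 1.16 ± 0.29, adjusted p = 0.0245). The groups stood just apart, at 24.4 and 26.7 CPM.

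Lama3, the alpha chain of laminin-332, was at 0.718, 1.05 and 2.05 CPM in Ctrl Chow and at 2.47, 3.29, 3.05 and 3.05 CPM in LIRKO Chow, a log2 difference of 1.25 ± 0.34 (adjusted p = 0.0409). Fbln5, needed for elastic fibre assembly, was at 0.849, 1.25 and 2.08 CPM and at 2.99, 3.56, 2.77 and 2.19 CPM (log2 difference 1.04 ± 0.26, adjusted p = 0.0238). The calls of Lama3, Col27a1 and Fbln5 were lost with LIRKO Chow replicates 3 and 4 left out and with the near-alike libraries summed. Those of Lama3 and Fbln5 were also lost without replicates 1 and 2 and without a filter on low counts. Each of these calls was lost without single libraries as well. For Lama3 these were Ctrl Chow replicates 3 to 6, each LIRKO Chow replicate and LIRKO HFD replicate 2 (adjusted p = 0.0547 to 0.111), for Col27a1 Ctrl Chow replicates 3 and 6 and LIRKO Chow replicates 1, 3 and 4 (0.0502 to 0.0976), and for Fbln5 LIRKO Chow replicates 1 to 3 (0.0646 to 0.0837), while the log2 differences stayed between 0.92 and 1.33.

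Col6a3, the chain of type VI collagen whose C-terminal fragment is endotrophin, was lower in LIRKO Chow. It was at 6.33, 8.88 and 15.3 CPM in Ctrl Chow and at 3.45, 3.84, 2.24 and 1.78 CPM in LIRKO Chow, a log2 difference of −1.79 ± 0.31 with an adjusted p of 0.00197. No library of one group reached the other. The call was lost with LIRKO Chow replicates 3 and 4 left out (−1.39, adjusted p = 0.0836).

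Col9a2, a chain of the fibril-associated type IX collagen of cartilage, had narrow groups. It was at 5.95, 6.38 and 6.86 CPM in Ctrl Chow, at 6.0, 5.30, 5.06, 5.79 and 5.83 CPM in Ctrl HFD, at 3.30, 3.89, 3.65 and 3.37 CPM in LIRKO Chow and at 2.23, 2.99 and 3.13 CPM in LIRKO HFD. All 7 LIRKO libraries were below all 11 Ctrl libraries. The log2 difference was −0.84 ± 0.14 (adjusted p = 0.00139) on Chow and −1.01 ± 0.16 (adjusted p = 0.00712) on HFD. It was called in 28 of 29 alternatives on each diet, the exceptions being the fit without LIRKO Chow replicates 3 and 4 on Chow (−0.79, adjusted p = 0.0559) and the fit of the 2 groups alone on HFD (−1.01, adjusted p = 0.247). HFD against Chow gave −0.18 ± 0.13 (adjusted p = 0.306) in Ctrl and −0.35 ± 0.16 (adjusted p = 0.286) in LIRKO, neither past the threshold.

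**Figure D4:**
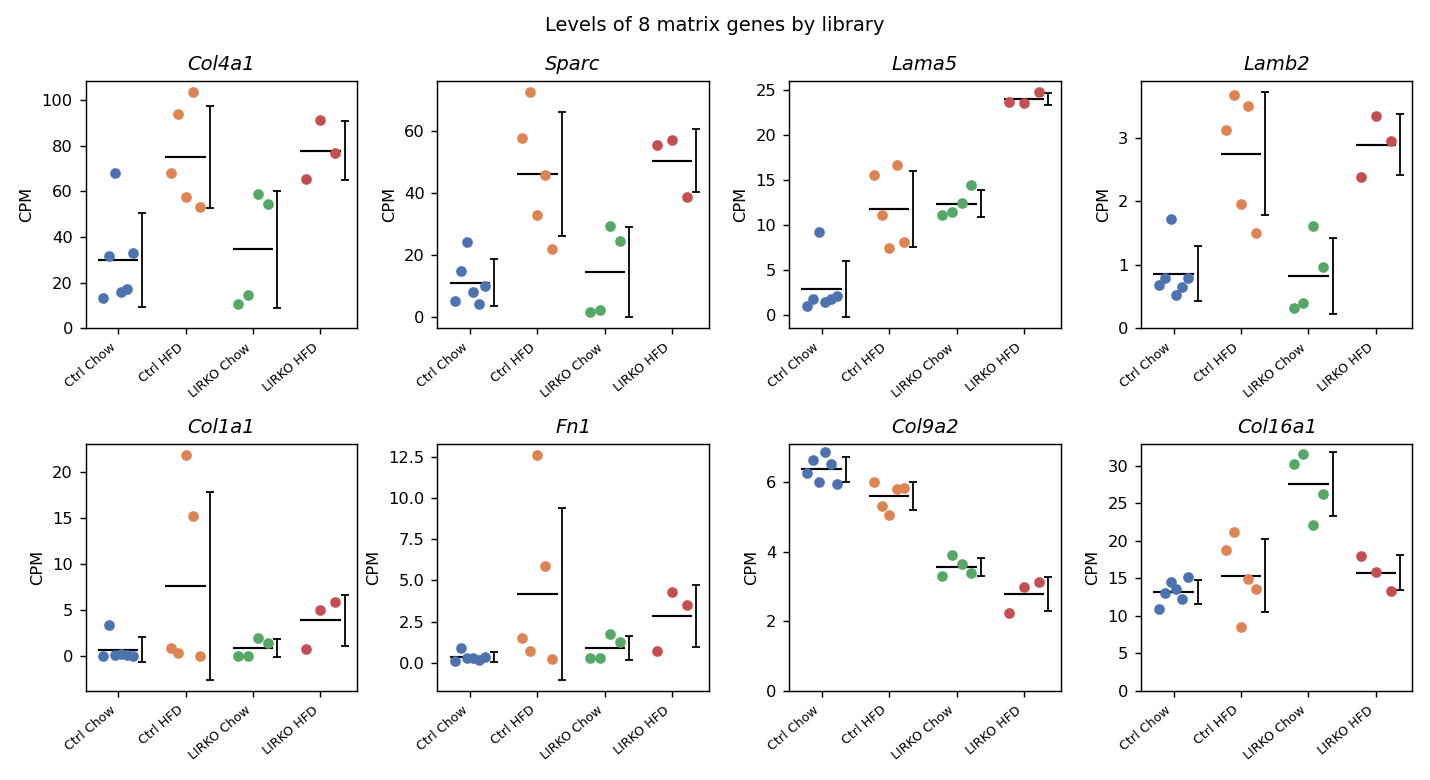
Level of 8 genes in each library (points, CPM), by group, with the group mean (line) and SD (bar beside the points). Lama5 is at 23.5 to 24.7 CPM in LIRKO HFD, Col9a2 is lower in every LIRKO library than in every Ctrl library, Col4a1 and Sparc split within LIRKO Chow, and Col1a1 and Fn1 are high in Ctrl HFD replicates 3 and 4.

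On HFD, Col9a2 was the 1 gene of the 55 that differed between LIRKO and Ctrl. It was lower, where 0.508% of all genes tested passed, 0.316% higher and 0.192% lower. No gene of the set was higher by edgeR, none was at an unadjusted p under 0.05 in that direction, and DESeq2 called 0 higher and 1 lower. The median log2 difference was −0.08 over the 55 and −0.03 over all genes. Every LIRKO HFD library was above every Ctrl HFD library for Lama5 (2.51% of all genes stood so) and below for Col9a2 and Col6a6 (2.5% of all genes). Lama5 was at 15.5, 11, 7.46, 16.6 and 8.03 CPM in Ctrl HFD and at 23.6, 23.5 and 24.7 CPM in LIRKO HFD. Its log2 difference was 1.03 ± 0.50, with an adjusted p of 0.643, and did not pass in any of the 29 alternatives (adjusted p = 0.0768 to 0.999).

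In Ctrl mice, HFD libraries held more transcripts of Lama5, Lamb2, Col15a1, Col18a1, Sparc and Fn1 and of the collagens Col2a1, Col5a3, Col7a1, Col11a2 and Col12a1 than Chow libraries, and fewer of Col6a3. Of the 20 basement membrane genes 4 were called higher and 1 lower. With edgeR 13 of 55 genes passed, 11 higher and 2 lower, where 9.93% of all genes did, 5.57% higher and 4.35% lower. The median log2 difference was 1.33 over the 55, at 1.28 for basement membrane genes, 2.31 for fibrillar collagens, 1.97 for glycoproteins and 0.26 for other collagens, and 0.04 over all genes. In 44 of the 55 genes the log2 difference was above 0, as it was in 10239 of all 19284 genes tested. Without scaling beyond library size the median of all genes moved to 0.22, all calls split into 2029 higher and 162 lower in place of 1075 and 839, and those of the set into 12 and 1. The ranges of the groups overlapped for all but 1 gene: Col12a1 was at 0 to 0.360 CPM in Ctrl Chow and at 0.372 to 1.39 CPM in Ctrl HFD (1.43% of all genes stood above without overlap, and 2.13% below, which no gene of the set did).

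These 13 calls rest on the shared estimate of the spread and on single libraries. None of them held when the 2 groups were fitted alone, when Ctrl HFD replicates 1 and 2 were left out, or when the near-alike LIRKO Chow libraries were summed. None held without Ctrl Chow replicate 1 or 6 or without Ctrl HFD replicate 1 or 2 alone, and 3 genes of the set passed without Ctrl Chow replicate 2, against 18 without Ctrl Chow replicate 3. Over all genes, the fits that left out 1 library called between 69 and 3883. DESeq2 called 24 of the set higher and 3 lower, and it also called more of all genes than edgeR did (counts given under processing below). Each of the 13 kept its direction wherever it was fitted, in all 29 alternatives but for Col2a1, which a filter of 1 CPM in 3 libraries removed from 1 of them. Cell type markers were also called in the same comparison. Of the vessel lists, 6 of 17 endothelial and 4 of 10 tested mural markers were higher and none lower, with median log2 differences of 1.70 and 1.51. Also higher were 1 of 9 alpha cell and 1 of 2 tested Schwann cell markers, while 3 of 11 beta cell markers were lower (median of the list −0.46). No marker of the other lists was called, and the part of these cells was not tested.

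Among basement membrane genes the called rises were Lama5, Lamb2, Col15a1 and Col18a1. Lama5 rose by 2.03 ± 0.44 on the log2 scale (adjusted p = 0.0272), from 2.85 ± 3.10 CPM (SD, n = 6) to 11.7 ± 4.20 CPM (n = 5). Lamb2, which encodes the beta 2 chain of laminins, was at 0.518, 0.737 and 1.72 CPM in Ctrl Chow and at 3.13, 3.68, 1.95, 3.49 and 1.5 CPM in Ctrl HFD (log2 difference 1.66 ± 0.40, adjusted p = 0.0317). Only Ctrl Chow replicate 3 and Ctrl HFD replicate 5 crossed. Col15a1 and Col18a1, the multiplexin collagens of vessel walls (Col18a1 being the source of endostatin), rose by 1.91 ± 0.59 (adjusted p = 0.0497) and 1.23 ± 0.37 (adjusted p = 0.0452). Sparc, also made by endothelial cells, was at 57.9, 72.7, 33.0, 45.8 and 22 CPM in Ctrl HFD and at 4.19, 8.89 and 24.2 CPM in Ctrl Chow, a log2 difference of 2.06 ± 0.61 (adjusted p = 0.045).

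Type IV collagen, perlecan and nidogen 1 missed the threshold. Col4a1 gave a log2 difference of 1.33 ± 0.44 (adjusted p = 0.0596), Col4a2 1.76 ± 0.63 (0.0699), Hspg2 1.74 ± 0.63 (0.073) and Nid1 1.37 ± 0.66 (0.149). For Col4a1 the adjusted p was 0.0202 by DESeq2. Lamc1 was at 32.3 ± 10.2 CPM (SD, n = 6) in Ctrl Chow and 35.4 ± 11 CPM (n = 5) in Ctrl HFD, with a log2 difference of 0.13 ± 0.22 (adjusted p = 0.685).

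**Figure D5:**
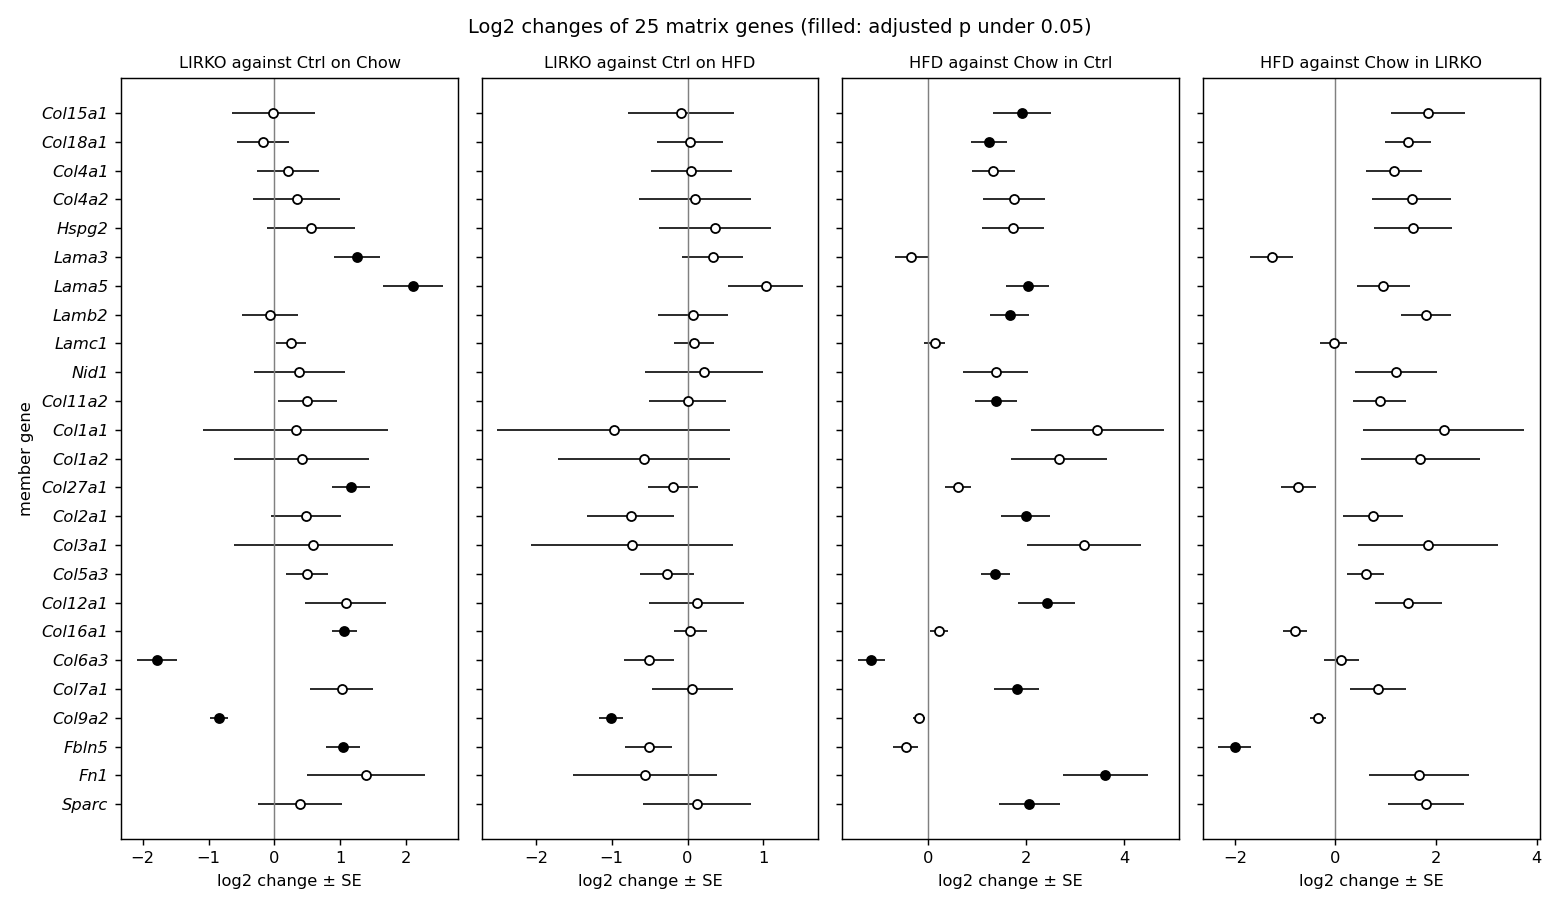
Log2 difference with its SE (points and bars, edgeR) for 25 genes given with test values, in the 4 pairwise comparisons, each on its own scale. Filled points passed an adjusted p of 0.05. In the HFD comparisons 12 points are filled in Ctrl and 1, Fbln5, in LIRKO.

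Among fibrillar collagens Col2a1, Col5a3 and Col11a2 rose with HFD in Ctrl. Col11a2 was at 6.31, 9.02 and 28.2 CPM in Ctrl Chow and at 56.5, 34.6, 15.5, 29.2 and 19.9 CPM in Ctrl HFD (log2 difference 1.38 ± 0.43, adjusted p = 0.0495). Col5a3 was at 0.789, 1.32 and 2.02 CPM and at 2.88, 3.35, 5.03, 4.59 and 1.95 CPM (1.37 ± 0.30, adjusted p = 0.0279), with Ctrl HFD replicate 5 inside the Chow range. Col2a1, the cartilage collagen, was low throughout at 0.0586 to 0.479 CPM in Ctrl Chow and 0.296 to 1.73 CPM in Ctrl HFD (1.98 ± 0.50, adjusted p = 0.0338). Of the other collagens, Col7a1, the anchoring fibril chain, was at 1.11, 2.33 and 6.30 CPM and at 20.1, 12.1, 3.25, 7.14 and 5.57 CPM (1.80 ± 0.45, adjusted p = 0.0338). Without Ctrl HFD replicates 1 and 2, its highest libraries, the difference was 1.00 (adjusted p = 0.215). Col12a1 rose by 2.41 ± 0.58 (adjusted p = 0.0325). Col6a3 fell by 1.16 ± 0.28 (adjusted p = 0.0317), from 9.77 ± 3.04 CPM (SD, n = 6) to 4.36 ± 1.54 CPM (n = 5).

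The large fibrillar collagens were set by 2 libraries. Col1a1 was at 21.8 and 15.2 CPM in Ctrl HFD replicates 3 and 4 and at 0.843, 0.372 and 0 CPM in replicates 1, 2 and 5. In Ctrl Chow it was at 0.0633, 0.167 and 3.43 CPM, in LIRKO Chow at 0.0490, 0, 1.96 and 1.48 CPM and in LIRKO HFD at 0.783, 4.99 and 5.91 CPM. The group means of Ctrl HFD therefore describe no library of the group. For HFD against Chow in Ctrl the log2 difference of Col1a1 was 3.45 ± 1.35 (adjusted p = 0.088), and −0.85 without Ctrl HFD replicates 3 and 4, an alternative chosen after the values were seen. Col1a2 gave 2.67 ± 0.98 (adjusted p = 0.0736) and −0.045, and Col3a1 3.17 ± 1.16 (adjusted p = 0.074) and 0.39.

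The same 2 libraries stood more than 3-fold above the other 3 of Ctrl HFD in 6 of 55 genes, namely Col1a1, Col1a2, Col3a1, Col5a1, Fn1 and Col8a1, and in 0.876% of all genes tested. No basement membrane gene was among them. Libraries and limit were chosen after the values were seen, those of Col1a1, Col1a2 and Col3a1 included, so the count is not independent of that choice. Fn1, which encodes fibronectin, was called higher with HFD in Ctrl (3.61 ± 0.87, adjusted p = 0.0328). It was at 12.6 and 5.88 CPM in those 2 libraries and at 1.49, 0.698 and 0.238 CPM in the others, against 0.105, 0.268 and 0.908 CPM in Ctrl Chow. Without replicates 3 and 4 the log2 difference was 1.22 and the adjusted p 0.216. Alpha cell markers, 9 genes, summed to 4551 and 4689 CPM in these libraries and to 782 to 1483 CPM in the other 3. The 3 defining fibroblast markers summed to 0.917 and 1.48 CPM there and to 0.0528 to 0.298 CPM in the other 3, and the whole list of 11 to 8.37 and 8.31 CPM against 6.14 to 8.58 CPM. The part of these cells in the collagen levels was not tested.

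In LIRKO mice, HFD libraries differed from Chow libraries for 1 gene past the threshold, Fbln5, which fell. Of all genes 2.03% passed, 1.06% higher and 0.975% lower. Fbln5 was at 2.99, 3.56, 2.77 and 2.19 CPM in LIRKO Chow and at 0.754, 0.697 and 0.701 CPM in LIRKO HFD, a log2 difference of −2.0 ± 0.33 (adjusted p = 0.00623). The groups were far apart. The call was lost without LIRKO Chow replicates 1 and 2 (−1.79, adjusted p = 0.163) and with the near-alike libraries summed (−2.02, adjusted p = 0.0893). No gene of the set was called higher by edgeR, 12 were higher and 9 lower at an unadjusted p under 0.05 (8.78% and 7.72% of all genes), and DESeq2 called 2 higher and 5 lower. Of all genes, too, DESeq2 called more than edgeR did (counts given under processing below). The median log2 difference was 0.88 over the 55 and 0.03 over all genes. Without scaling beyond library size the latter moved to 0.25, and all calls split into 504 higher and 86 lower in place of 204 and 188. Every LIRKO HFD library was above every LIRKO Chow library for 21 of the 55 genes and below for 10, where 16.1% and 18.3% of all genes stood so.

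For Sparc and Col4a1 the difference depended on the pair of LIRKO Chow libraries. Sparc was at 1.62, 2.32, 29.4 and 24.7 CPM in LIRKO Chow and at 55.7, 57.1 and 38.7 CPM in LIRKO HFD. Its log2 difference was 1.80 ± 0.76 (adjusted p = 0.239), with 4.66 (adjusted p = 0.00368) against LIRKO Chow replicates 1 and 2 and 0.90 (adjusted p = 0.752) against replicates 3 and 4. Col4a1 gave 1.17 ± 0.55 (adjusted p = 0.301), 2.62 and 0.45 in the same order. Lama5 gave 0.95 ± 0.52 (adjusted p = 0.369), and 1.06 and 0.83, nearly alike against either pair. With the 2 groups fitted alone 15 of 51 genes of the set passed, 6 higher and 9 lower, where 8.15% and 10.6% of all genes did. By adjusted p the first of these were Fbln5 (−1.99, adjusted p = 0.00259) and Col14a1 (−2.13, 0.00758) among the lower and Lama5 (0.96, 0.00269) among the higher, Col14a1 being named after its values were seen.

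The genotype by diet interaction, taken as LIRKO against Ctrl under HFD less the same difference under Chow, was called for no gene of the set. By edgeR 0.00519% of all genes passed, a single gene, and none of 55 did, with 4 of the set (7.27%) at an unadjusted p under 0.05, as were 5.52% of all genes. DESeq2 called none of the set. The 4 were Fbln5 (−1.55 ± 0.41, adjusted p = 0.449), Col16a1 (−1.02 ± 0.29, 0.493), Col27a1 (−1.35 ± 0.45, 0.685) and Col6a3 (1.28 ± 0.44, 0.71), named after their values were seen. All 4 had been called between LIRKO and Ctrl on Chow and not on HFD, but the difference between the diets was thus not past the threshold. In LIRKO HFD, Col16a1 was at 18, 15.9 and 13.3 CPM and Col27a1 at 16.9, 26.4 and 24.5 CPM, inside the range of Ctrl HFD (8.49 to 21.1 and 14.2 to 37.5 CPM).

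Genes that act on the matrix were counted from fixed lists. Of 29 tested receptors of matrix proteins (of 31 listed), Cd44, the hyaluronan receptor, rose by 1.21 ± 0.16 on the log2 scale in LIRKO Chow (adjusted p = 0.000342), from 32.2 ± 6.62 to 74.5 ± 5.73 CPM. Bcam, a receptor of laminin alpha 5, fell by 0.74 ± 0.20 (adjusted p = 0.0409). On Chow 2.95% of all genes were higher and 2.2% lower. The call of Cd44 held in all 29 alternatives and that of Bcam in 15, not with the near-alike libraries summed. With HFD in Ctrl 3 receptors rose and none fell: Cd44 by 0.69 ± 0.16, Itga2b by 1.35 ± 0.36 and the collagen-binding integrin gene Itga1 by 1.44 ± 0.39 (adjusted p = 0.0298, 0.0368 and 0.0384), where 5.57% of all genes rose. All 3 calls were lost with the 2 groups alone and without Ctrl HFD replicate 1 or 2. With HFD in LIRKO 2 rose, where 1.06% of all genes did. These were Bcam, by 1.26 ± 0.23, and the collagen receptor gene Lair1 of leukocytes, by 2.07 ± 0.42 (adjusted p = 0.0129 and 0.0185). Both calls were lost without LIRKO Chow replicate 1 or 2 and with the near-alike libraries summed. The call of Bcam was also lost without LIRKO HFD replicate 2, and that of Lair1 without LIRKO HFD replicate 1 or 3. The 12 macrophage markers, of which 3 were called higher there, summed to 104 to 172 CPM in LIRKO Chow and 222 to 254 CPM in LIRKO HFD, and their part in the level of Lair1 was not tested. No receptor was called between genotypes on HFD by edgeR.

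Of 29 tested genes of collagen maturation (of 32), 2 rose and 1 fell in LIRKO Chow, where 2.95% and 2.2% of all genes did. Plod2, the lysyl hydroxylase of collagen telopeptides, rose by 2.19 ± 0.45 (adjusted p = 0.00761), from 3.40 ± 1.77 to 15.6 ± 2.85 CPM, and P3h2, a prolyl 3-hydroxylase that acts on type IV collagen, by 1.5 ± 0.29 (adjusted p = 0.00493). Adamts2, which removes the N-propeptide of fibrillar procollagens, fell by 1.79 ± 0.46 (adjusted p = 0.0279), from 0.495 ± 0.113 to 0.142 ± 0.0622 CPM. The LIRKO Chow level was near that of 3 reads per library, 0.0599 to 0.0823 CPM in that group. The calls of Plod2 and P3h2 held in 27 of 29 alternatives and that of Adamts2 in 20 of 28. All 3 were lost with LIRKO Chow replicates 3 and 4 left out and with the near-alike libraries summed. With HFD in Ctrl Loxl3, Fkbp10 and P3h2 rose, by 1.65, 1.46 and 1.00 (adjusted p = 0.0309, 0.0315 and 0.0402), and none fell. Of all genes 5.57% rose and 4.35% fell in that comparison. These 3 calls too were lost with the 2 groups alone and without Ctrl HFD replicate 1 or 2. Of 25 tested genes of matrix turnover (of 26), those that rose in LIRKO Chow included the protease genes Ctsk (1.23 ± 0.26) and Mmp15 (0.90 ± 0.23) and the plasminogen activator gene Plat (1.21 ± 0.32), with adjusted p of 0.0099, 0.0281 and 0.0315. These calls held in 27, 21 and 23 of 29 alternatives, and all 3 were lost with the near-alike libraries summed. With HFD in LIRKO the protease inhibitor gene Timp2 rose by 1.03 ± 0.24 (adjusted p = 0.0306), and Mmp3 passed (adjusted p = 0.019) with 0.0580, 1.07 and 1.35 CPM against 0 reads in all 4 LIRKO Chow libraries, a mean at least 11.4-fold higher at a limit of 3 reads per library. Both calls were lost without LIRKO Chow replicate 1 or 2 and with the near-alike libraries summed. The call of Timp2 was also lost when any other LIRKO library was left out. That of Mmp3 was also lost without LIRKO HFD replicate 2 or 3.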

How the data were processed

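The authors deposited 1 table of whole-number read counts per gene for 18 libraries. Per the submitters' processing notes, reads were aligned with STAR to GRCm38 and counted with featureCounts; of the tool versions, the annotation and the strand setting, none is given in the sources used here. Symbols and exon lengths came from GENCODE M21, which matched 52489 of 53090 IDs. Genes were tested with edgeR 4.0.16 in R 4.3.3 (filterByExpr, TMM scaling, quasi-likelihood F test, two-sided, Benjamini-Hochberg adjustment, threshold 0.05). All 18 libraries entered 1 fit with 1 coefficient per group, and 19284 genes were tested. The SE is the log2 difference divided by the root of F. CPM use TMM-scaled totals, and RPKM divide CPM by exon length. The fit was also run on simulated counts drawn independently for each library. These had no near-alike libraries and no splits within groups, so the run cannot show how the fit handles them. Alternatives were DESeq2 1.42.0, other scaling and filters, the 2 groups alone, and libraries left out singly, in pairs or summed. The genes named with test values are those that passed in that comparison and 13 fixed ones (Col1a1, Col1a2, Col3a1, Col4a1, Col4a2, Lama5, Lamb2, Lamc1, Nid1, Hspg2, Sparc, Fn1, Col18a1); exceptions are marked, and some results are not reported here although counts over the set include them. The genes and lists were chosen with earlier results of these data known. Sequences are from RefSeq on GRCm38.p6.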

Additional observations from a re-analysis of the deposited data

Results flagged for a closer look

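In Ctrl Chow, 12 genes had 1 library far above the other 5. A gap of this size arises in about 1 of 20 groups of independent, normally distributed values, and 78 groups of 4 to 6 libraries were looked at, 3 for each of 26 genes. CPM need not follow that form and many of the flagged genes share a library, so the 12 cannot be judged by that rate. Replicate 3 stood apart for 7 basement membrane genes. It was at 9.50 CPM for Col15a1 (others 1.32 to 3.90), 8.34 for Col18a1 (2.13 to 3.16), 68.1 for Col4a1 (13.2 to 32.8), 40.8 for Col4a2 (4.97 to 17.1), 11.3 for Hspg2 (1.13 to 4.65), 9.14 for Lama5 (0.999 to 2.03) and 1.72 for Lamb2 (0.518 to 0.791). The same library had the highest endothelial marker sum of its group, at 243 CPM, and the highest acinar marker sum, at 614 CPM. The part of these cells in the 7 values was not tested. Replicate 2 stood apart for Col1a1 (3.43 CPM, others 0.0633 to 0.279), Col1a2 (3.16, others 0.158 to 1.00) and Fn1 (0.908, others 0.105 to 0.348). Its defining fibroblast markers summed to 1.44 CPM, against at most 0.131 CPM in the other 5. The whole list of 11 fibroblast markers did not single it out, at 5.54 CPM in replicate 2 and 6.22 CPM in replicate 4. The part of fibroblasts in these values was not tested. Replicate 4 stood apart for Col11a2 (28.2 CPM, others 6.31 to 13.1) and Col7a1 (6.30, others 1.11 to 3.05).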

How the results depend on the processing

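No paired analysis was possible because the labels carry no replicate numbers. No called gene of the set changed direction under any alternative that fitted it (29, or 28 for Col2a1), and where a count moved by over 1.5 times the cause was not tested. For LIRKO against Ctrl on Chow (993 genes, 7 of the set), genes called were 1653 with the 2 groups alone, 1649 by DESeq2, 1765 without Ctrl HFD 1 and 2, 477 without LIRKO Chow 1 and 2, 256 without 3 and 4, and 193 with these pairs summed; the last 3 gave 4, 2 and 3 of the set, and leaving out 1 library 431 to 1126 genes and 4 to 8 of the set. On HFD (98 genes, 1 of the set) they were 19 with the groups alone (0 of the set), 309 by DESeq2, 193 without Ctrl HFD 1 and 2, 352 without Ctrl HFD 3 and 4 (chosen after seeing the data) and 54 summed, with 10 to 162 without 1 library. For HFD in Ctrl (1914 genes, 13 of the set) they were 457 with no filter, 1 alone, 3910 by DESeq2, 34 without Ctrl HFD 1 and 2, 983 and 1043 without either LIRKO Chow pair, 6641 without Ctrl HFD 3 and 4 and 114 summed; of the set, 27 passed by DESeq2 and 0 alone, without Ctrl HFD 1 and 2, or summed. Without 1 library the counts were 69 to 3883 and 0 to 18. For HFD in LIRKO (392 genes, 1 of the set) they were 590 with no scaling, 250 with no filter, 3403 alone, 1059 by DESeq2, 1191 without Ctrl HFD 1 and 2, 3 and 787 without LIRKO Chow 1 and 2 or 3 and 4, 667 without Ctrl HFD 3 and 4 and 7 summed; of the set, 2, 15, 7, 5, 0, 12, 2 and 0 passed in that order, the unfiltered fit excepted. Without 1 library they were 55 to 502 and 1 to 3. The interaction (1 gene) gave 39 by DESeq2, 8 without Ctrl HFD 1 and 2, 0 without LIRKO Chow 3 and 4 or summed, and 0 to 3 without 1 library.

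Genes that were not called changed sign as follows. On Chow, without LIRKO Chow 1 and 2, Col18a1 gave 0.17 and Lamb2 0.58; without 3 and 4, Col1a1 −4.59, Col1a2 −2.24, Col3a1 −4.19, Col4a1 −1.24, Col4a2 −2.46, Fn1 −0.17, Hspg2 −2.37, Nid1 −2.68 and Sparc −2.46. Without 1 library they ran from −0.36 to 0.29 for Col18a1, −0.48 to 2.55 for Col1a1, −0.56 to 1.53 for Col1a2, −0.17 to 0.64 for Col4a1, −0.22 to 0.92 for Col4a2, −0.057 to 1.11 for Hspg2, −0.63 to 0.27 for Lamb2, −0.14 to 1.02 for Nid1 and −0.22 to 0.79 for Sparc. On HFD, without Ctrl HFD 3 and 4, Col18a1 gave −0.17, Col1a1 3.35, Col1a2 2.17, Col3a1 2.06, Fn1 1.85 and Sparc −0.022, and without 1 and 2 Lamc1 −0.16. Without 1 library they ran from −0.59 to 0.30 for Col18a1, −1.06 to 0.24 for Col1a2, −1.03 to 0.074 for Col3a1, −0.076 to 0.19 for Col4a1, −0.041 to 0.25 for Col4a2, −0.99 to 0.45 for Fn1, −0.080 to 0.20 for Lamb2, −0.046 to 0.24 for Lamc1 and −0.051 to 0.35 for Sparc. For HFD in Ctrl without Ctrl HFD 3 and 4, Col1a1 gave −0.85, Col1a2 −0.045 and Lamc1 −0.17 (Lamc1 −0.023 to 0.27 without 1 library). For HFD in LIRKO, Lamc1 gave 0.18 with no scaling, 0.14 without LIRKO Chow 3 and 4, and −0.12 to 0.037 without 1 library. Genes near 3 reads a library (0.0599 to 0.149 CPM), such as Col1a1 in LIRKO Chow 1 and 2, carry little precision.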
